A study of Mus musculus with 24 samples.

Results

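Prune2 encodes a large protein of neurons that joins a prune-type phosphoesterase domain to a C-terminal BCH domain, the lipid- and GTPase-binding fold that it shares with BNIP-2 and caytaxin. In human cells the BCH domain of this protein, also called BMCC1 or BNIPXL, binds the GTPase RhoA and restrains its signalling. In the nervous system the gene is transcribed into long and short RNAs, so that probes at different places can read different sets of its transcripts.

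All probe sets whose only annotated gene is Prune2 were taken, which gave 4 of the 45037 tested. A probe set is a group of short oligonucleotides whose combined signal stands for a stretch of a gene's transcripts. No further probe set carried the same Entrez gene together with other genes. The gene was chosen from values of these arrays, namely its level on each array, its spread within each line and the opposite course of its probe sets, so differences between the lines are given here as descriptions without a test. The difference between the tissues, averaged over both lines, was tested. Its error comes from the spread within groups, which was among the values that chose the gene. The p-values are therefore not free of that choice, and a lack of calls does not show equal levels.

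The samples are total RNA of amygdala and hippocampus of male mice from 2 lines, named by how long the animals freeze. Line 25 is the high freezing line and line 24 the low freezing line, and the series title names selection for contextual fear conditioning, a test of memory for a place where shocks were given. The 24 arrays form 4 groups of 6: amygdala of the high and of the low line, and hippocampus of the high and of the low line. The labels used here give no age, background strain or treatment, and do not say whether RNA of several animals was pooled or whether an array number stands for the same animal in both tissues. Each line is a single breeding line, so that selection and drift cannot be told apart. Nothing in the labels says that arrays of a group come from separate animals, so the spread between arrays may be partly technical.

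Values are linear signals, scaled by the authors to a common trimmed mean of 150 on every array, with array medians from 43.3 to 55.7. Differences and SDs are on the log2(signal + 16) scale, which understates the change of weak probe sets. Signals of different probe sets cannot be set against each other as amounts of RNA, since each has its own probes, and fewer cells of a type and less RNA per cell cannot be told apart in whole tissue. As a check of the tissue labels, 6 of 7 hippocampus markers were called higher in hippocampus, with Dsp at -3.83 and Zbtb20 at -1.78 (amygdala minus hippocampus), while Wfs1 was called higher in amygdala. Of 4 measured amygdala markers 3 were called higher in amygdala, with Foxp2 at 2.83 and Meis2 at 2.06, and Cdh9 was not. All 6 measured striatum markers were also called higher in amygdala, with a median difference of 2.16. Striatal tissue in the amygdala samples therefore cannot be told apart from amygdala by this check, and its part in the tissue differences was not tested.

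Of the 4 Prune2 probe sets, 1455342_at had the highest mean, 8.52, above 86.8% of all probe sets or level with them. The probe set 1432198_at followed with a mean of 7.98. The other 2 were weak: 1439274_at had a mean of 6.23, and 1430757_at, with a mean of 5.27, lay below the array median on 23 of 24 arrays. Per the accession prefixes in the platform annotation, 1432198_at and 1430757_at go back to full-length cDNA records and 1455342_at and 1439274_at to expressed sequence tags. Their places along the transcripts were not examined here.

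The probe set 1432198_at was much lower in the high freezing line in both tissues, and its level differed widely between arrays of a line. In amygdala its lowest, median and highest signals were 28.0, 46.0 and 354 in the high line and 271, 878 and 1116 in the low line. The lines met only at the edge, as 5 of 6 high line arrays lay below the lowest low line array. The difference, high minus low, was -3.04 ± 0.56 SE. In hippocampus the lowest, median and highest signals were 22.7, 40.3 and 574 in the high line and 357, 715 and 923 in the low line. Again 5 of 6 high line arrays lay below every low line array, and the difference was -2.84 ± 0.61 SE. No fold change is given, since most high line arrays were near the median signal of their array, where the pseudocount sets part of the difference. By size this was rank 1 of 45037 line differences in each tissue, and the medians over all probe sets were -0.007 in amygdala and 0.02 in hippocampus. The gene was chosen from these same values, so the rank is a description and no support.

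The arrays of 1 line and tissue also lay far apart on this probe set. In amygdala the means were 6.54 ± 1.37 in the high line and 9.58 ± 0.73 in the low line (SD, n = 6 arrays each). In hippocampus they were 6.48 ± 1.57 in the high line and 9.32 ± 0.58 in the low line (SD, n = 6 each). The SD of 1432198_at was 1.88 times as large in the high line as in the low line in amygdala and 2.70 times in hippocampus, where the median of that ratio over all probe sets was 0.981 and 1.09. Among all 45037 probe sets its SD ranked 11 in amygdala of the high line and 196 in amygdala of the low line, and 8 in hippocampus of the high line and 1790 in hippocampus of the low line. Weak probe sets vary more on this scale, so it was also set against probe sets whose mean in the same group was within 0.5 of its own. There it ranked 5 of 7314 in amygdala of the high line and 4 of 2256 in amygdala of the low line. In hippocampus it ranked 1 of 7773 in the high line and 5 of 2552 in the low line. The gene was chosen partly by this spread, so the ranks are descriptions and no support. In the high line the mean also fell between arrays of low and of high signal, so probe sets of like mean are not a like base.

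**Figure D1:**
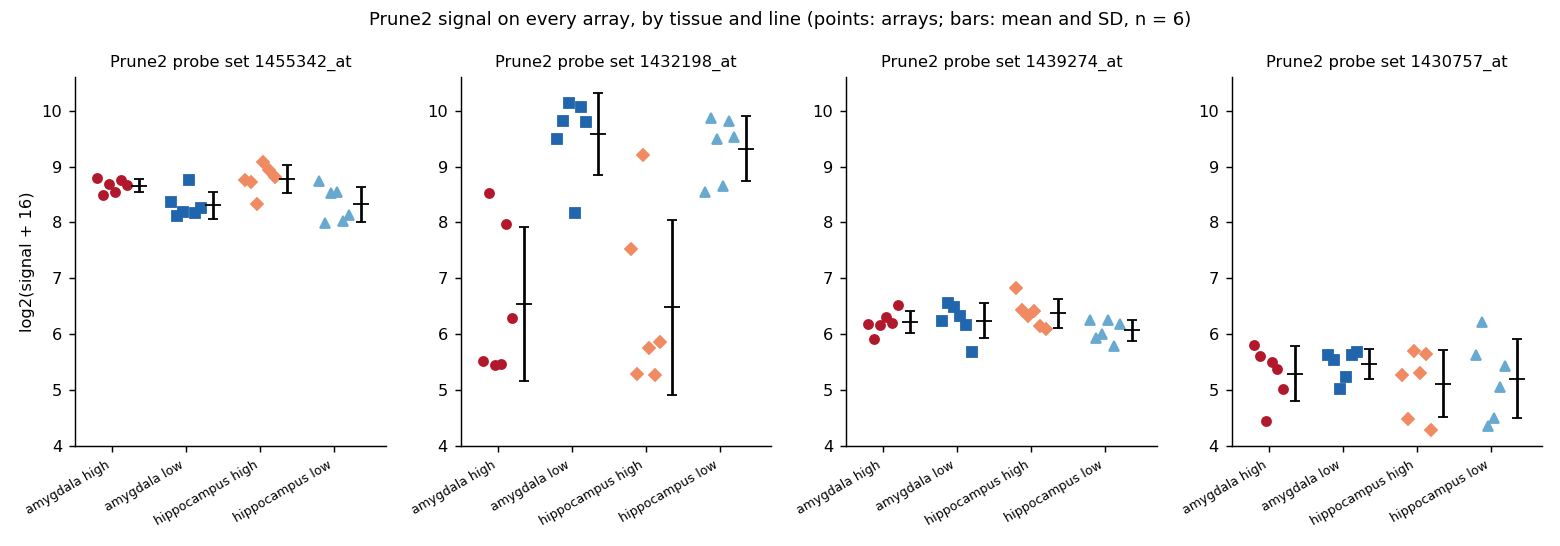
Signal of the 4 Prune2 probe sets as log2(signal + 16) on every array (points), with mean and SD (bars, n = 6), for amygdala of the high and low line and hippocampus of the high and low line. On 1432198_at the high line means are 6.54 and 6.48 against 9.58 and 9.32 in the low line, with single high line arrays reaching the low line. On the other probe sets, 1455342_at included, the lines overlap in both tissues, and 1455342_at has slightly higher means in the high line.

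Sorted by signal, the 12 high line arrays fell on either side of a wide gap on 1432198_at. Below it lay 8 arrays, 4 of each tissue, with signals up to 62.3, which put them between percentiles 31.0 and 56.6 of all probe sets on their arrays. Above it lay amygdala arrays 8 and 11, at 354 and 236, and hippocampus arrays 7 and 9, at 167 and 574. The gap, from 62.3 to 167, was 1.23 wide on the log2 scale. The 12 low line arrays lay between percentiles 83.2 and 96.3. Within the low line the widest gap, 0.84, ran between 387 and 704, with 3 arrays under it (amygdala array 4 and hippocampus arrays 1 and 4) and 9 over it. In all, 10 of 12 high line arrays were below every low line array. No label sorts the arrays within a line, and no comparison was made between arrays sorted by their own values.

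In the high line an array number often did not go with 1 level of 1432198_at in both tissues, while in the low line most did. In the high line, number 9 read 28.0 in amygdala and 574 in hippocampus, number 8 read 354 and 23.1, and number 11 read 236 and 22.7. Numbers 10 and 12 were low in both tissues, at 28.3 and 38.0 and at 62.3 and 42.5. In the low line, number 4 read 271 in amygdala, the lowest there, and 387 in hippocampus, under the widest gap of that line in both. Numbers 2, 3, 5 and 6 lay over that gap in both tissues. They read 886 and 923, 1116 and 704, 1052 and 889, and 871 and 725, amygdala first. Number 1 fell on either side of it, at 707 in amygdala and 357 in hippocampus.

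The brightest probe set, 1455342_at, ran the other way and was higher in the high line in both tissues. In amygdala its lowest, median and highest signals were 344, 393 and 428 in the high line and 263, 282 and 417 in the low line. Only 1 of 6 high line arrays was above the highest low line array, which was array 4. The difference was 0.35 ± 0.11 SE. In hippocampus the signals were 308, 426 and 523 in the high line and 239, 309 and 413 in the low line. There 4 of 6 high line arrays were above every low line array, and the difference was 0.45 ± 0.16 SE. The size of these differences, ranks 2813 and 2397 of 45037, was far below that of 1432198_at.

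**Figure D2:**
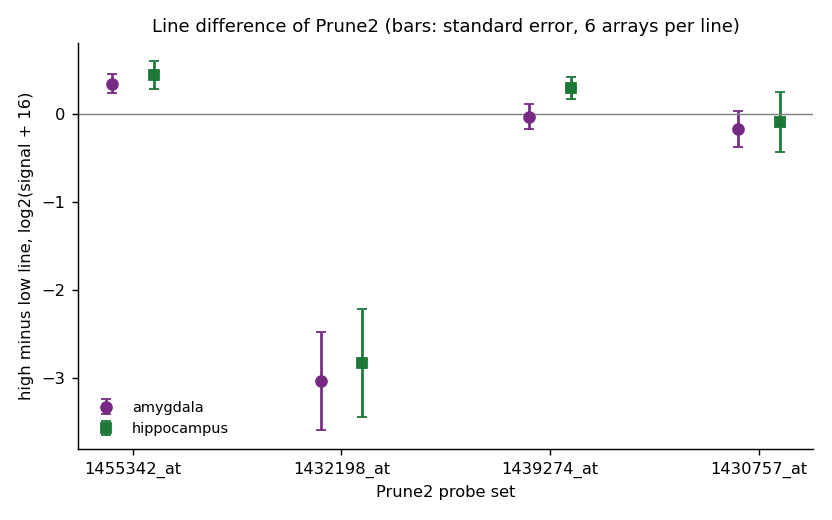
Line difference (high minus low, log2(signal + 16)) of each Prune2 probe set in amygdala and hippocampus, with its standard error from limma (bars, 6 arrays per line). The differences of 1432198_at are -3.04 and -2.84, those of 1455342_at are 0.35 and 0.45, and those of the weak probe sets lie between -0.17 and 0.30.

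The 2 bright probe sets also ran opposite ways between arrays within both groups of the low line, and less steadily within the high line. In hippocampus of the low line the order of the 6 arrays on 1455342_at was the exact reverse of that on 1432198_at (Pearson's r -0.88). In amygdala of the low line r was -0.97 and Spearman's rank correlation -0.77. There array 4 was both the lowest of its group on 1432198_at, at 271, and the highest on 1455342_at, at 417. In hippocampus of the high line r was -0.81 and the rank correlation -0.54, and array 9 was the highest on 1432198_at, at 574, and the lowest on 1455342_at, at 308. That value rests on array 9, without which r was -0.31 and the rank correlation -0.20 over 5 arrays. In amygdala of the high line the relation was weak (r -0.29, rank correlation -0.26), although array 8, the highest on 1432198_at, was the lowest on 1455342_at, at 344, and without it r was 0.39. In amygdala of the low line r was -0.75 without array 4, and in hippocampus of the low line it was between -0.99 and -0.80 with 1 array left out. These values are descriptions over 6 arrays each. Over all 24 arrays, where the line difference adds to the relation, 1455342_at had the lowest Pearson's r with 1432198_at of all 45037 probe sets, -0.81. With group means taken away r was -0.63 and no longer the lowest. The gene was chosen for its opposing probe sets, so this place among all probe sets is a description and no support.

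**Figure D3:**
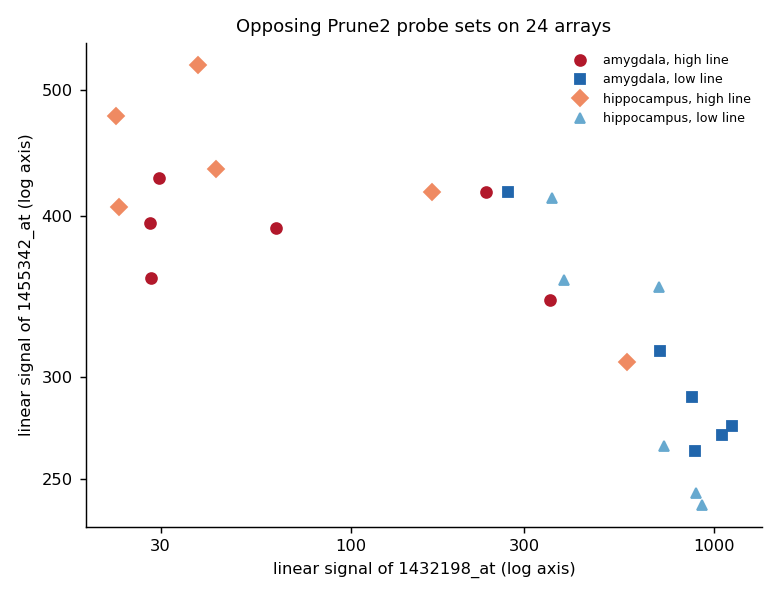
Linear signals of 1455342_at (vertical, log axis) against 1432198_at (horizontal, log axis) on 24 arrays, by tissue and line. The points run from the upper left, where most high line arrays lie, to the lower right, where most low line arrays lie (Pearson's r -0.81 over 24 arrays).

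The weak probe sets did not share the large difference. For 1439274_at the lowest, median and highest signals in amygdala were 44.2, 56.9 and 76.0 in the high line and 35.3, 62.2 and 78.1 in the low line, and the high line arrays all lay within the low line's range. Its difference was -0.03 ± 0.14 SE in amygdala and 0.30 ± 0.13 SE in hippocampus. In hippocampus the signals were 52.5, 66.6 and 97.4 in the high line and 39.2, 52.5 and 60.6 in the low line, and 4 of 6 high line arrays lay above every low line array. In hippocampus of the low line 1439274_at also ran against 1432198_at (r -0.85, rank correlation -0.83) and with 1455342_at (r 0.72, rank correlation 0.83). In the other groups its r was between -0.52 and 0.33 with 1432198_at and between -0.09 and 0.31 with 1455342_at. For 1430757_at the signals ran from 5.80 to 40.1 in amygdala of the high line and 16.5 to 35.6 in the low line. In hippocampus they ran from 3.66 to 35.8 in the high line and 4.63 to 58.7 in the low line. Its differences, -0.17 ± 0.21 SE in amygdala and -0.08 ± 0.34 SE in hippocampus, were smaller than their errors. Within groups its r with 1432198_at was between 0.20 and 0.48, and its rank correlation between -0.31 and 0.37.

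As a background to these descriptions, limma at a Benjamini-Hochberg adjusted p under 0.05 called 0.00222% of all probe sets between the lines in amygdala and 0.0222% in hippocampus. In hippocampus 0.00666% were higher and 0.0155% lower in the high line. None of the 4 Prune2 probe sets was among those called, and nothing is read from that count, because the gene was chosen from the same values.

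Array measures that moved with the lines are given beside these differences. In hippocampus the 5' control for 18S ribosomal RNA was at 3600 to 5799.9 in the high line and 5859 to 7093 in the low line, without overlap, so RNA preparation and line cannot be told apart there. The summed signal of the 7 hippocampus markers in hippocampus was 7150 to 7941 in the high line and 8339 to 9170 in the low line, and its part in the Prune2 difference was not tested. In amygdala of the high line, arrays 7 and 8 stood apart in the actin control, with a 5' over 3' signal ratio of 0.301 on array 7 and 0.339 on array 8, where the low line had 0.497 to 0.630. These arrays read 29.7 and 354 on 1432198_at, and without both the difference in amygdala was -3.28. Summed choroid plexus markers ranged from 619 to 12981 in amygdala of the high line and from 1531 to 13982 in the low line, overlapping over most of their range. Within groups all 5 of them had negative correlations with 1432198_at over the 24 arrays, with r of -0.54 to -0.46 once group means were taken away, and their part in the spread of Prune2 was not tested. The high line, with its larger SD on 1432198_at, weighs more in these r values. Summed neuron markers overlapped between the lines in both tissues.

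Prune2 showed no difference between the tissues that passed the test on any probe set. The spread within lines, from which the gene was chosen, also sets the error of this test, so the result does not show equal levels. In limma's fit of the 4 groups over all 24 arrays, 0 of 4 probe sets were called and 0 had an unadjusted p under 0.05, where 25.8% of all probe sets were called. On 1455342_at the lowest, median and highest signals were 263, 351 and 428 in amygdala and 239, 381 and 523 in hippocampus. The difference, amygdala minus hippocampus, was -0.07 ± 0.10 SE (adjusted p = 0.662), and 7 of 12 amygdala arrays lay below the hippocampus median. On 1432198_at they were 28.0, 312 and 1116 in amygdala and 22.7, 372 and 923 in hippocampus. That difference was 0.16 ± 0.44 SE (adjusted p = 0.836), with 7 of 12 amygdala arrays below the hippocampus median. The SD over the 12 arrays of a tissue was 1.90 in amygdala and 1.86 in hippocampus, and without amygdala array 8 of the high line the difference was -0.042. For 1439274_at the difference was 0.006 ± 0.10 SE (adjusted p = 0.976), with 6 of 12 amygdala arrays above the hippocampus median. For 1430757_at it was 0.22 ± 0.21 SE (adjusted p = 0.492), with 8 of 12 above.

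Ordered by mean level, the 4 groups were close on 1455342_at: hippocampus of the high line at 8.78 ± 0.25, amygdala of the high line at 8.66 ± 0.12, hippocampus of the low line at 8.33 ± 0.32 and amygdala of the low line at 8.31 ± 0.24 (SD, n = 6 each). On 1432198_at amygdala of the low line stood at the top and hippocampus of the high line at the bottom. On both probe sets the tissues of a line were no farther apart than the larger of their SDs.

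No gene related to Prune2 was called between the lines, where 0.00222% of all probe sets were called in amygdala and 0.0222% in hippocampus, so the count says little about these genes. The relatives are Bnip2, Bnipl, Atcay (caytaxin, mutated in the jittery mouse), Arhgap1 and Arhgap8, which are GTPase-activating proteins with a related domain, and Prune1, a phosphatase of short polyphosphates. By limma 0 of 6 were called in amygdala (1 at an unadjusted p under 0.05, median difference -0.08) and 0 of 6 in hippocampus (0 at an unadjusted p under 0.05, median 0.01). The lowest p in amygdala belonged to Bnip2, at -0.19 ± 0.08 SE, followed by Atcay, at -0.23 ± 0.13 SE. In hippocampus it belonged to Bnip2, at -0.09 ± 0.10 SE, followed by Prune1, at 0.05 ± 0.08 SE. Between the tissues, where 25.8% of all probe sets were called, 1 of 6 was, Arhgap1, higher in amygdala at 0.22 ± 0.05 SE (adjusted p = 0.00295).

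A list of small GTPases, their regulators and partners of BCH proteins had 13 genes with a probe set naming them alone. Between the lines limma called 0 of 13 in amygdala (1 at an unadjusted p under 0.05, median 0.05) and 0 of 13 in hippocampus (1 at an unadjusted p under 0.05, median 0.06). In amygdala Rhoc was at -0.27 ± 0.11 SE and Mcf2, a guanine nucleotide exchange factor, at 0.19 ± 0.10 SE. In hippocampus Mcf2l, another exchange factor, was at 0.16 ± 0.06 SE and Cdc42 at -0.10 ± 0.06 SE. Between the tissues 9 of 13 were called, against 25.8% of all probe sets. That share includes weak and unnamed probe sets, while the listed genes were read by their brightest, so no excess is read from it. Higher in amygdala were Nme1 (0.53 ± 0.13 SE), Map6, a microtubule stabiliser (0.46 ± 0.05 SE), Mcf2 (0.45 ± 0.08 SE), Rhoc (0.27 ± 0.08 SE) and Klc1, a kinesin light chain (0.21 ± 0.06 SE). Lower in amygdala were Akap13, the exchange factor Lbc (-0.57 ± 0.06 SE), Rhob (-0.39 ± 0.05 SE), Cdc42 (-0.20 ± 0.05 SE) and Nme2 (-0.14 ± 0.04 SE).

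The nearest genes on either side of Prune2 in the reference gene table (GRCm38.p6, used for the order of genes only) are Foxb2, a forkhead factor, and Vps13a, a lipid transfer protein, before it, and Gcnt1, an O-glycan branching enzyme, and Rfk, riboflavin kinase, after it. Further out lie Gna14, E030024N20Rik and Gnaq before it, and Pcsk5, Ostf1 and Nmrk1 after it. Between the lines limma called 0 of these 10 in either tissue; at an unadjusted p under 0.05 lay 2 of the 5 before and 3 of the 5 after Prune2 in amygdala, and 0 and 1 in hippocampus. Of all 45037 probe sets, 2945 lay there in amygdala and 4040 in hippocampus. Rfk had the lowest p in hippocampus. Its signals there had a lowest, median and highest value of 652, 713 and 769 in the high line and 507, 596 and 609.9 in the low line, without overlap. Of all probe sets, 0.637% had no overlap between the hippocampus lines. The difference of Rfk was 0.29 ± 0.07 SE in hippocampus (adjusted p = 0.268) and 0.18 ± 0.08 SE in amygdala (adjusted p = 0.754). The 2 other probe sets of Rfk had the same sign, with 0.33 and 0.32 in hippocampus and 0.18 and 0.29 in amygdala.

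The other 3 near neighbours had smaller or unsteady differences. Vps13a was at -0.16 ± 0.07 SE in amygdala, with 226 to 259.8 in the high line and 261 to 289 in the low line, and at 0.05 ± 0.07 SE in hippocampus. Its amygdala arrays did not overlap between the lines, as for 0.402% of all probe sets. On its other 4 probe sets the amygdala lines overlapped, and 1440482_at had the opposite sign, at 0.37 ± 0.10 SE in amygdala and 0.28 ± 0.15 SE in hippocampus. Gcnt1 was weak, and its difference was -0.50 ± 0.23 SE in amygdala and 0.12 ± 0.22 SE in hippocampus. Foxb2, at or below 30.6 on all arrays, was at -0.15 ± 0.21 SE in amygdala and 0.28 ± 0.28 SE in hippocampus. The neighbours were read by their brightest probe sets, so shares over all probe sets, weak ones included, are not a like base. Between the tissues 3 of the 5 genes before and 4 of the 5 after Prune2 were called, each lower in amygdala, as were 12.9% of all probe sets. These were Vps13a (-0.18 ± 0.04 SE), E030024N20Rik (-0.27 ± 0.06 SE), Gnaq (-0.50 ± 0.04 SE), Rfk (-0.22 ± 0.05 SE), Pcsk5 (-0.21 ± 0.08 SE), Ostf1 (-0.62 ± 0.07 SE) and Nmrk1 (-0.35 ± 0.12 SE).

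The probe sets most like 1432198_at over the 24 arrays, by Pearson's r on the log2 scale, belonged to Prpf19 (0.90), a ubiquitin ligase of the splicing machinery, Trpm3 (0.85), a cation channel, Nsa2 (0.82), a ribosome assembly factor, Ildr2 (0.81) and Hps1 (0.81), a factor of lysosome-related organelles. Of these 5, Prpf19, Trpm3 and Hps1 lie on chromosome 19 in the reference table, as does Prune2, where 3.37% of 18145 named genes lie. The r values are descriptions over arrays that share 2 lines and 2 tissues, and each of these 5 probe sets had a negative line difference in both tissues. Other probe sets of the same genes differed from them: Ildr2 1436894_at had line differences of 0.54 in amygdala and 0.63 in hippocampus and an r of -0.67 with 1432198_at, where the named 1436293_x_at had -0.49 and -0.82. The named Trpm3 probe set was weak, with a mean of 5.57, and the gene's other probe sets had r of -0.35 to 0.64. Its brightest, 1456633_at, had line differences of 0.04 in amygdala and -0.04 in hippocampus and an r of -0.29. The Prpf19 probe set 1419839_x_at had a lowest, median and highest signal of 515, 545.5 and 738 in amygdala of the high line and 715, 797 and 1002 in the low line. In hippocampus they were 443, 461 and 591 in the high line and 723, 802 and 924 in the low line. Of the 5 it alone was called by limma, in hippocampus (-0.74 ± 0.09 SE, adjusted p = 0.0301). No probe set was called there with a pseudocount of 1, or without low line array 1, 2, 3, 4 or 6 or high line array 12, so the call was lost in each case. A further Prpf19 probe set, 1449635_at, was also called in hippocampus (-0.74 ± 0.09 SE, adjusted p = 0.0264) and had an r of 0.87 with 1432198_at. The brightest Prpf19 probe set, 1456531_x_at, had line differences of 0.06 in amygdala and -0.002 in hippocampus and an r of -0.26. On 1460633_at the differences were -0.06 and 0.006, with an r of 0.07, and the weak 1444939_at had an r of 0.28.

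With each group's mean taken away, differences of mean between lines or tissues add nothing to r. The high line still weighs more in it, as its SD on 1432198_at was larger. The likest were then Nsa2 (0.84), Klf9 (0.83), a transcription factor induced by glucocorticoids, Myrf (0.75), the myelin regulatory factor, Selenot (0.75) and Lkaaear1 (0.75). Klf9 and Myrf lie on chromosome 19 in the reference table. The Klf9 probe set 1428288_at had a lowest, median and highest signal of 936, 1061 and 1858 in amygdala of the high line and 1151, 1785 and 2157 in the low line. In hippocampus the values were 1600.1, 1688 and 2570.5 in the high line and 1698, 2538 and 2693 in the low line. Its highest high line arrays were amygdala array 8 and hippocampus array 9, which were also the highest on 1432198_at, and amygdala array 4 and hippocampus array 4 were its lowest low line arrays. The other 6 probe sets of Klf9 had within-group r values of -0.24 to 0.54. Those of Nsa2, the brightest 1423132_a_at and the weak 1453816_at, had within-group r values of -0.04 and 0.60. Over all arrays they had r of 0.20 and 0.13. The named probe sets of Selenot and Lkaaear1 were weak, with means of 4.27 and 4.46.

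**Figure D4:**
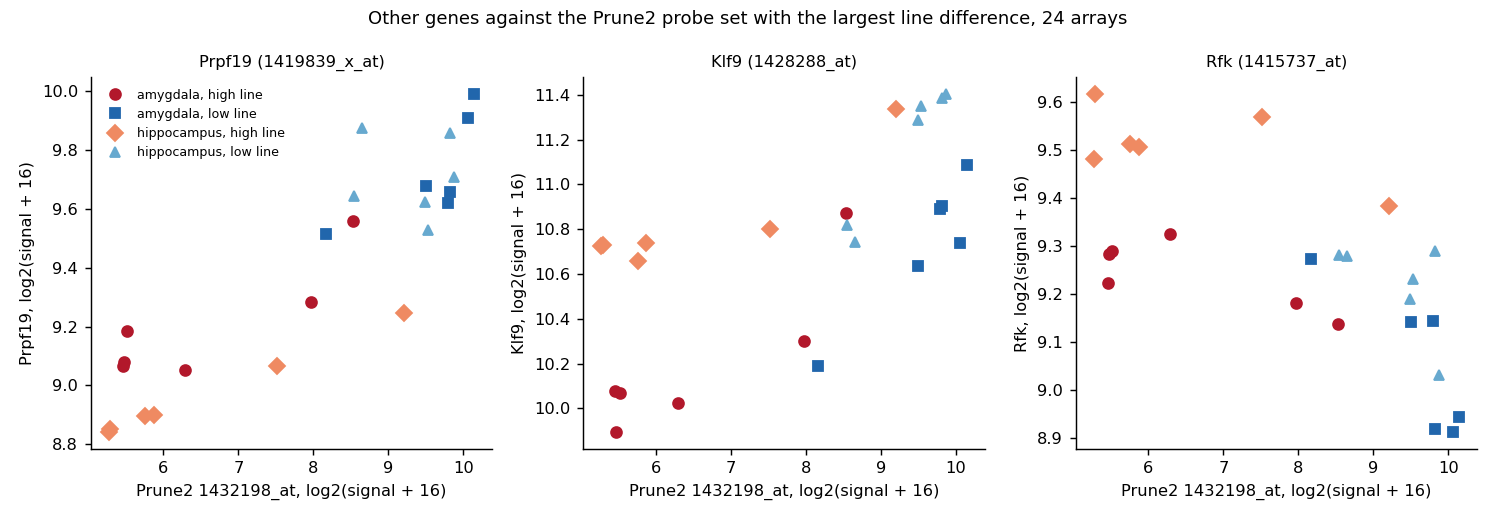
Log2(signal + 16) of Prpf19 (1419839_x_at), Klf9 (1428288_at) and Rfk (1415737_at) against Prune2 1432198_at on 24 arrays, by tissue and line. Prpf19 rises with the Prune2 probe set over all arrays (r = 0.90), Klf9 rises within groups (r = 0.83 with group means taken away) and Rfk falls (r = -0.70).

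For 1455342_at, the likest over 24 arrays were Scin (0.72), an actin-severing protein, the neighbour Rfk (0.71), Plekhm1 (0.69), an endosome adaptor, Mvb12a (0.67), an ESCRT-I subunit, and Mzt1 (0.66), of the gamma-tubulin complex. With group means taken away they were Prune1 (0.81), Cacng6 (0.73), Denr (0.69), Ltc4s (0.69) and Csmd3 (0.68). On chromosome 19 lie 1 of the first 5, Rfk, and 0 of the second 5. Prune1, the relative of Prune2 in its phosphoesterase domain, was read by 1434138_at, and its other probe sets had within-group r values of -0.50 and 0.24. Several of the named probe sets were weak, with means of 5.12 for Scin, 4.87 for Plekhm1, 4.78 for Cacng6 and 5.04 for Csmd3. The brightest probe sets of Plekhm1, Mvb12a and Mzt1 had r of 0.02, -0.02 and 0.36 with 1455342_at over the 24 arrays. The other probe sets of Rfk had r of 0.68 and 0.53.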

How the data were processed

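The file holds the authors' deposited linear intensity for each of 45101 probe sets on 24 arrays. How signals were computed from the scans, and with what software or genome build, is not given in the sources used here. By its values every array has a mean of 150 after leaving out 2% at each end. The 64 control probe sets were left out of the tests, and 0 columns were left unmapped. Probe sets were named through the platform annotation, of which 34945 carry 1 symbol, 932 several and 9160 none, and 34741 of the first were matched to the GRCm38.p6 table by Entrez identifier. Values were tested as log2(value + 16) in R 4.3.3 with lmFit and eBayes of limma 3.58.1, and a call was a Benjamini-Hochberg adjusted p under 0.05 over all 45037 probe sets. Line differences, high minus low, were fitted on the 12 arrays of a tissue, and the tissue difference on group means of all 24. The fits were tested on simulated arrays.

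Named are all Prune2 probe sets, the called genes of each list and its 2 of lowest p, called neighbours among 5 on each side and the 4 nearest, and the 5 genes of highest Pearson's r with the brightest Prune2 probe set and with the one of largest line difference. Other genes were read by their brightest probe set, except for likeness, which took any probe set with 1 symbol. Some listed items are not reported here. The gene, the lists and these rules were chosen with earlier results of these data known. Array numbers recur in both tissues, but deviations of same-numbered arrays correlated at -0.06 to 0.13, over 0.1 for 2 of 12, so they were not taken as pairs. Alternatives were other pseudocounts, normalizations, a filter, an intensity trend, other sets of arrays and each array left out. The number of arrays limits the precision.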

Additional observations from a re-analysis of the deposited data

Results flagged for a closer look

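On 1432198_at, array 4 of amygdala of the low line, at 8.16 on the log2(signal + 16) scale, lay apart below the other 5 arrays of its group by Dixon's ratio of gap to range. It was 1 of 16 combinations of probe set and group looked at, and chance gives about 1 in 20. The gene was chosen from these same values, so this is a description and not a test. The same array was the highest of its group on 1455342_at. The cause was not tested.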

How the results depend on the processing

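The line difference of 1432198_at was between -3.38 and -2.43 in amygdala under 8 alternatives and between -3.21 and -2.19 in hippocampus under 7. With 1 array left out it was between -3.44 and -2.82 in amygdala and between -3.38 and -2.59 in hippocampus. That of 1455342_at stayed positive, at 0.31 to 0.44 in amygdala and 0.38 to 0.54 in hippocampus with 1 array left out. The weak probe sets had lines differing by -0.27 to 0.005 (1430757_at) and -0.14 to 0.03 (1439274_at) in amygdala, and by -0.25 to 0.12 and 0.21 to 0.35 in hippocampus, with 1 array left out. Within amygdala of the high line, Pearson's r between 1432198_at and 1455342_at ran from -0.65 to 0.39 with 1 array left out, an alternative chosen after seeing the data. The filter on weak probe sets left out 1430757_at, so it has no value there.

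Prune2 was called between the tissues on 0 of 4 probe sets under each alternative run, with adjusted p of at least 0.252. Within the high line alone the tissue difference of 1439274_at was -0.16, the reverse of its sign over both lines. With 1 array left out the tissue difference ran from -0.042 (without amygdala array 8 of the high line) to 0.43 on 1432198_at, -0.026 to 0.062 on 1439274_at, 0.13 to 0.32 on 1430757_at and -0.11 to -0.03 on 1455342_at. With array number as a replicate block the tissue difference of 1455342_at was -0.07 (adjusted p = 0.591), that of 1432198_at 0.16 (0.851), and 10558 probe sets were called, against 11615 without it; only 2 of 12 arrays matched their own number best in the other tissue.

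Over all probe sets, calls between tissues were 6917 within the high line alone and 5424 within the low line alone, each with fewer arrays, and 10896 to 11574 with 1 array left out. Calls between lines in amygdala were 1, with 0 at a pseudocount of 64, without the lowest 40%, with an intensity trend and without arrays 7 and 8, 6 with all 24 arrays in 1 fit, and 0 to 3 with 1 array left out. In hippocampus they were 10, with 0 at a pseudocount of 1, 26 at 64, 20 without the lowest 40%, 57 with an intensity trend, 51 with all 24 arrays in 1 fit, and 0 to 14 with 1 array left out. The cause was not tested.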
